A study of Mus musculus with 18 samples.

Results

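The matrix metalloproteinases (MMPs), the ADAMTS proteases, the ADAMTS-like proteins and the tissue inhibitors of metalloproteinases (TIMPs) were examined in mouse adipocytes. Protein-coding genes were taken by symbol, Mmp, Timp, Adamts or Adamtsl followed by a number, which gave 50 of the 33440 genes in the data: 22 MMPs, 4 TIMPs, 19 ADAMTSs and 5 ADAMTS-like genes. The study asked which genes lie downstream of interferon regulatory factor 3 (IRF3) in adipocytes, and RNA was sequenced in 2 experiments on C57BL/6 mice. In the first, cells of the stromal vascular fraction (SVF) of inguinal fat from young IRF3-2D mice, which carry a constitutively active Irf3 allele that is silent until Cre recombinase acts, were turned into adipocytes in culture. On day 6 the 3 WT cultures received AAV-GFP and the 3 FI3OE cultures AAV-GFP-Cre, and RNA was taken on day 8. Both groups carried the allele, so the presence of Cre and of active IRF3 cannot be told apart. In the second, ribosome-bound RNA was isolated by translating ribosome affinity purification (TRAP), which pulls down a GFP-tagged ribosomal protein made in adipocytes, from epididymal fat (eWAT) of Ad-NuTRAP mice (WT, 6 libraries) and FI3KO-Ad-NuTRAP mice, which lack Irf3 in adipocytes through Adipoq-Cre (FI3KO, 6 libraries). All TRAP mice carried the tagged ribosome and were fed a high-fat diet (HFD) for 8 weeks at thermoneutrality, and the sources used here give an age for high-fat-fed mice of the study but not for the TRAP mice by name. The labels call the libraries biological replicates without naming an animal or a culture, so p-values measure the spread between these libraries.

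Collagens, proteoglycans and elastic fibres around fat cells are cut by secreted or membrane-bound zinc proteases. MMPs are made as inactive proenzymes and are named after their substrates: collagenases cut fibrillar collagen, gelatinases cut denatured and basement membrane collagen, stromelysins and matrilysin have broad specificity, and membrane-type MMPs act at the cell surface and activate others. ADAMTS proteases have thrombospondin repeats that anchor them in the matrix. Some remove the N-terminal propeptide of procollagens, some cut proteoglycans such as versican and aggrecan, and ADAMTS-like proteins share the repeats but lack the protease domain. TIMPs bind the active site of MMPs, and TIMP3 also blocks several ADAMTS proteases. In fat tissue, turnover of the matrix accompanies the differentiation and enlargement of adipocytes.

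Of the 9 MMP genes that lie next to one another on chromosome 9 (7272514 to 7699585, GRCm38, GENCODE M21), 7 had the letters TGANTCA, bound by AP-1 transcription factors, within 100 bases of a RefSeq start site. None of the 26 members outside this cluster with a promoter entry had them in the 250 bases before the start, and over all 38 promoter entries of 35 members the share was 18.4%, against 6.75% of 32851 promoters in the reference. The 100 bases before each start are shown 5′ to 3′ on the gene's strand, from RefSeq on GRCm38.p6, with the AP-1 letters in capitals, because these neighbours share the letters while their measured levels ranged from no read to above 10 TPM.

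Mmp13 (chr9:7272414-7272513, plus strand): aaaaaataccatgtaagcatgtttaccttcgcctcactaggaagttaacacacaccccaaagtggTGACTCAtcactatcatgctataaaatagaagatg
Mmp12, inner start (chr9:7347274-7347373, plus strand): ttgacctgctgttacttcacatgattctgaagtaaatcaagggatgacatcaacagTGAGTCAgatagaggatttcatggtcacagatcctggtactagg
Mmp1b (chr9:7388027-7388126, minus strand): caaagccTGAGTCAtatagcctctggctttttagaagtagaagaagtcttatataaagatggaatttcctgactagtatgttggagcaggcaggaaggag
Mmp3 (chr9:7445722-7445821, plus strand): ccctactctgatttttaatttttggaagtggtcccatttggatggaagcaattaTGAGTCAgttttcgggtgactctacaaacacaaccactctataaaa
Mmp10 (chr9:7502242-7502341, plus strand): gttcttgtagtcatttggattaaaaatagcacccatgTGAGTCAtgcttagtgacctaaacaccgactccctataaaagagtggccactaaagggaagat
Mmp20 (chr9:7628131-7628230, plus strand): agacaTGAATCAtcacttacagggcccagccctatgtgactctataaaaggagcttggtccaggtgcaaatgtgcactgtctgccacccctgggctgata
Mmp7 (chr9:7691990-7692089, plus strand): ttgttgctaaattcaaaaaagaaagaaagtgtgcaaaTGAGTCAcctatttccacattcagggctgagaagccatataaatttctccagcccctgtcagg

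The core of the interferon-stimulated response element was in 1 of the 38 promoters, that of Mmp13, against 2.98% of all promoters, and an NF-kB site was in 0, against 0.356% of all promoters. Both strands were searched, and no match to one of the 3 overlapped a match to another in these promoters. The 250 bases before the starts of Timp1, which changed most in both comparisons below among the inhibitors, and of Timp4, the most abundant inhibitor in TRAP RNA, held none of the 3.

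Timp1 (chrX:20869916-20870165, plus strand): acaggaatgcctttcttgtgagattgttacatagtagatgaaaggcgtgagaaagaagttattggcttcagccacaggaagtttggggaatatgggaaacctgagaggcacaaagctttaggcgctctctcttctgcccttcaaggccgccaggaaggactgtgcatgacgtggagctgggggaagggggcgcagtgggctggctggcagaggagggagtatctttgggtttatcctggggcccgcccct
Timp4 (chr6:115252206-115252455, minus strand): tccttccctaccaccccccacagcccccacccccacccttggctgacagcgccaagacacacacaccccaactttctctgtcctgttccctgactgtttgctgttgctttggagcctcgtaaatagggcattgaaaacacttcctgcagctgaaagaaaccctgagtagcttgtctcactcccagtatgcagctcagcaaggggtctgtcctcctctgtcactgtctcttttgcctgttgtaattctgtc

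Libraries held between 21541334 and 40490283 estimated reads. Irf3 checked the labels: the transcript ENSMUST00000107834.1 of Irf3 had 0 reads in each FI3KO library and 164 to 388 in WT TRAP libraries, while the whole gene was at 15.8 ± 2.50 and 20.1 ± 2.14 CPM (reads scaled to the size of the library, SD, n = 6 each), and Irf3 amounted to 91.4 to 102 CPM in FI3OE against 56.8 to 57.9 CPM in WT. Summed over 10 adipocyte genes (among them Adipoq, Plin1 and Fabp4), levels were 42200 TPM (reads scaled by transcript length and library size) in WT TRAP RNA and 10200 TPM in WT cultures, while 12 macrophage genes summed to 92.7 and 3140 TPM, so that the cultures held macrophage transcripts in quantity. The median chi-square of a gene's reads between 2 WT TRAP libraries was 13.1 to 18.7 times that of sampling noise between replicates 1 and 2 and replicates 3 to 6, against 1.70 between replicates 1 and 2 and 2.94 to 11.2 among replicates 3 to 6. In FI3KO these values were 11.9 to 23.3, 9.67 and 3.67 to 14.0, which overlapped. WT replicates 1 and 2 were the closest pair of TRAP libraries. Their 1.70 also lay below the 1.95 to 2.71 between cultures of the same group. Whether these 2 libraries are independent samples was not tested, and if they are not, p-values within replicates 1 and 2 rest on too small a spread. They were kept as separate samples, and TRAP results are given by replicate set as well.

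Every member expressed in ribosome-bound eWAT RNA was also expressed in cultured adipocytes, while the levels and their order differed. At a mean of at least 1 TPM, a scale that corrects for transcript length and so compares genes, 33 of 50 members were expressed in WT SVF-derived adipocytes and 22 in WT TRAP RNA. All 22 were among the 33, 11 members reached 1 TPM in the cultures alone, and 17 in neither. The depot, the culture and the kind of RNA differ between these 2 groups, so their levels are set side by side without a test. Summed over each family, WT cultures and WT TRAP RNA held 688 ± 9.98 and 302 ± 14.5 TPM of MMPs, 568 ± 11.0 and 481 ± 26.2 TPM of TIMPs, and 678 ± 6.79 and 712 ± 121 TPM of ADAMTSs (SD, n = 3 and 6).

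**Figure D1:**
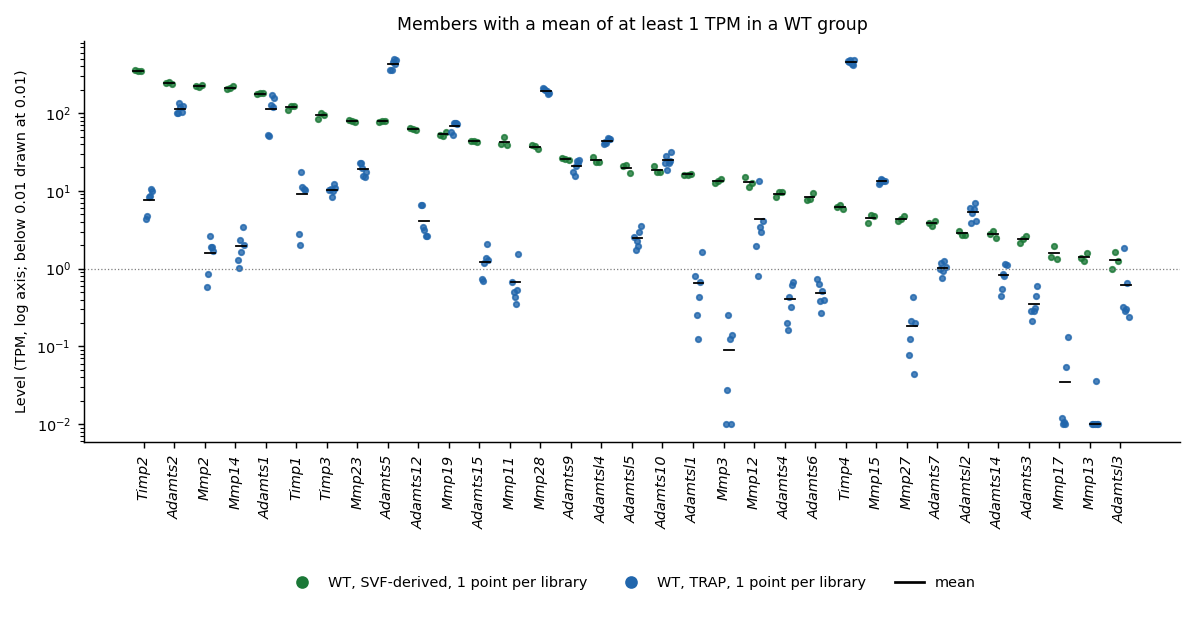
Level in TPM (log axis) of the 33 members with a mean of at least 1 TPM in a WT group, ordered by their level in SVF-derived adipocytes, with 1 point per library, the mean as a bar and 1 TPM as a dotted line. Timp4, Adamts5 and Mmp28 lie far above the cultures in TRAP RNA, while Timp2, Mmp2 and Mmp14 lie far below them.

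All 4 TIMPs were expressed in both WT groups, with nearly opposite orders. Timp2, which with MMP14 serves the activation of MMP2, was the most abundant member in the cultures at 355, 348 and 345 TPM, and its TRAP level was 4.41 to 10.5 TPM with a median of 8.47. Timp1 stood at 110, 123 and 122 TPM and Timp3 at 85.2, 100.1 and 95.9 TPM in the cultures, against medians of 10.4 and 10.4 TPM in TRAP RNA. Timp4, an inhibitor known for its expression in fat and heart, was the most abundant member in TRAP RNA, with 418 to 482 TPM and a median of 461, against 6.13, 6.62 and 5.92 TPM in the cultures. The TRAP ranges of Timp1, Timp2 and Timp3 overlapped one another, and Timp4 lay above them in every library.

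The gelatinase Mmp2 and its membrane-bound activator Mmp14 followed Timp2. In the cultures Mmp2 reached 222, 217 and 229 TPM and Mmp14 reached 205, 208 and 220 TPM, and the order of these 2 was within the spread between libraries. In WT TRAP RNA their medians were 1.77 and 1.83 TPM. Mmp9, the other gelatinase, had a mean of 0.396 TPM in the cultures and 0.0685 TPM in TRAP RNA, below the 1 TPM limit in both.

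Other MMPs that were abundant in TRAP RNA were of less studied kinds. Mmp28 (epilysin), a secreted MMP activated by furin, had 174 to 208 TPM with a median of 196 in WT TRAP RNA and 39.0, 38.1 and 34.3 TPM in the cultures. Of its exon bases, 12.0% overlap 1700020L24Rik on the other strand, which stood at 205 TPM in WT TRAP RNA, and the library kit does not mark strand. Mmp19 had a TRAP median of 73.5 TPM and 52.6, 51.3 and 57.8 TPM in the cultures, so that its ranges overlapped, and 22.3% of its exon bases overlap Tmem198b on the other strand (8.70 and 14.9 TPM). Mmp15, a membrane-type MMP, had 12.2 to 14.1 TPM in TRAP RNA and 3.88 to 4.84 TPM in the cultures. Mmp23, an MMP anchored at its N-terminus, had a TRAP median of 18.6 TPM and 81.8, 79.5 and 77.4 TPM in the cultures.

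Among the chromosome 9 neighbours, 4 of 9 reached 1 TPM in the cultures and 1 did in TRAP RNA. Mmp3 (stromelysin-1) had 12.8, 13.4 and 14.1 TPM in the cultures, and Mmp12 (macrophage metalloelastase) had 15.0, 11.2 and 12.7 TPM. The levels of Mmp27 and Mmp13 (collagenase-3) were lower, at 4.40 ± 0.368 and 1.41 ± 0.175 TPM (SD, n = 3). Mmp1b, Mmp7, Mmp8, Mmp10 and Mmp20 stayed below 0.2 TPM in each group mean. In WT TRAP RNA, Mmp12 ranged from 0.795 to 13.2 TPM with a median of 3.18, and Mmp3 had between 0 and 8 reads a library. Of the 7 genes whose sequences are shown above, only Mmp3, Mmp12 and Mmp13 thus reached 1 TPM in either WT group.

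ADAMTS genes made up the larger part of the protease transcripts in TRAP RNA, carried by a few members. Adamts5, an aggrecanase and versicanase, had 362 to 497 TPM with a median of 443 in WT TRAP RNA, overlapping Timp4, and 76.6, 79.8 and 78.4 TPM in the cultures. Adamts2, a procollagen N-proteinase, had 101 to 134 TPM in TRAP RNA and 241, 249 and 240 TPM in the cultures. Of this, ENSMUST00000142118.2, annotated as a processed transcript and not as protein-coding, had means of 66.7 TPM in TRAP RNA and 115 TPM in the cultures. The protein-coding ENSMUST00000040523.8 had 47.0 and 124 TPM. Adamts1, a versicanase that lies beside Adamts5 on chromosome 16, had 50.4 to 169 TPM in TRAP RNA and 176, 180 and 180 TPM in the cultures. Adamts12, known to cut cartilage oligomeric matrix protein, and the proteoglycanase Adamts15 reached 62.4 ± 2.08 and 43.3 ± 1.09 TPM in the cultures (SD, n = 3), with TRAP medians of 3.27 and 1.24 TPM. Adamtsl4, linked to fibrillin microfibrils, was one of the members higher in TRAP RNA, at 40.5 to 47.7 TPM against 23.2 to 27.3 TPM in the cultures.

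In SVF-derived adipocytes, Timp1 was higher and Mmp11 and the sparsely read Mmp21 were lower in FI3OE, and among members expressed at 1 TPM or more the other shifts were smaller. A call needed, in edgeR's quasi-likelihood test, a Benjamini-Hochberg adjusted p no higher than 0.05 together with a log2 fold change of 1 or more in size. Of 38 members tested, 3 were called (background 3.62% of all genes tested), 1 higher (background 1.99%) and 2 lower (background 1.63%). At the adjusted p alone, 12 members were higher (background 20.2%) and 9 lower (background 16.8%), which is 21 of 38 against 37.0% of all 16105 genes tested. The groups did not overlap for 24 members (background 49.5%), 13 higher (25.7%) and 11 lower (23.8%) in FI3OE. The median log2 fold change of the 38 members was -0.07, against 0.00 for all genes.

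**Figure D2:**
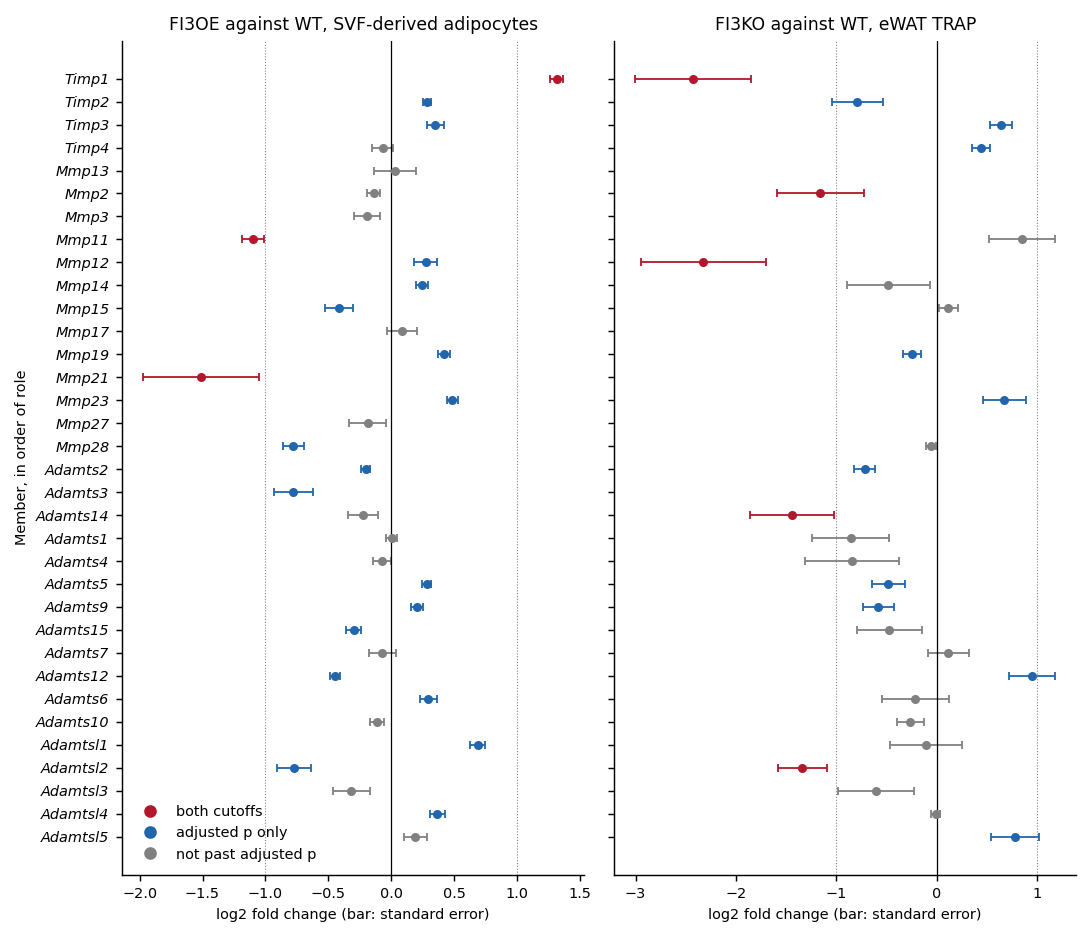
Log2 fold change with its standard error for members in order of role, from edgeR, in FI3OE against WT SVF-derived adipocytes (3 libraries each) and FI3KO against WT TRAP RNA (6 each), coloured by call, with dotted lines at the fold cutoff; members not tested in a comparison have no point there. Timp1 lies farthest above 0 in the cultures and farthest below 0 in TRAP RNA.

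Timp1 (ENSMUSG00000001131, chromosome X, 20870166 to 20874735, plus strand) inhibits most soluble MMPs. It had 37.5, 41.3 and 42.3 CPM in WT and 97.4, 106 and 98.0 CPM in FI3OE. Each FI3OE library lay above each WT library, by more than the spread within either group. Timp1 rose by a factor of 2.49, or 1.32 on the log2 scale (standard error 0.05), with an adjusted p of 1e-08 in edgeR. Both of its transcripts were higher, ENSMUST00000009530.4 at 189 against 81.0 TPM and ENSMUST00000115342.9 at 90.9 against 37.2 TPM (means of 3 libraries each). The adjusted p was 0.0844 when all 18 libraries shared 1 estimate of the spread.

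The other inhibitors moved less. Timp2 (chromosome 11, minus strand) had 448, 458 and 456 CPM in WT and 555, 536 and 567 CPM in FI3OE, and Timp3 (chromosome 10, plus strand) had 218, 258 and 260 CPM in WT and 342, 300.5 and 297 CPM in FI3OE. Neither gene's groups overlapped, and they rose by log2 fold changes of 0.28 (standard error 0.03, adjusted p = 6.28e-05) and 0.35 (standard error 0.07, adjusted p = 0.00232) in edgeR. Timp4, at 12.8 to 15.2 CPM in WT and 12.8 to 13.6 CPM in FI3OE, overlapped and did not pass the test (log2 fold change -0.07, adjusted p = 0.559). The summed level of the 4 TIMPs was 816 ± 5.82 TPM in FI3OE and 568 ± 11.0 TPM in WT (SD, n = 3 each), while that of the 22 MMPs had a mean of 681 TPM in FI3OE and of 688 TPM in WT, with overlap. Timp1 alone went from a mean of 118 TPM in WT to one of 280 TPM in FI3OE, the greater part of the rise in the TIMP sum. The sum of the 19 ADAMTSs was lower without overlap, at 585 to 623 TPM in FI3OE and 673 to 686 TPM in WT.

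**Figure D3:**
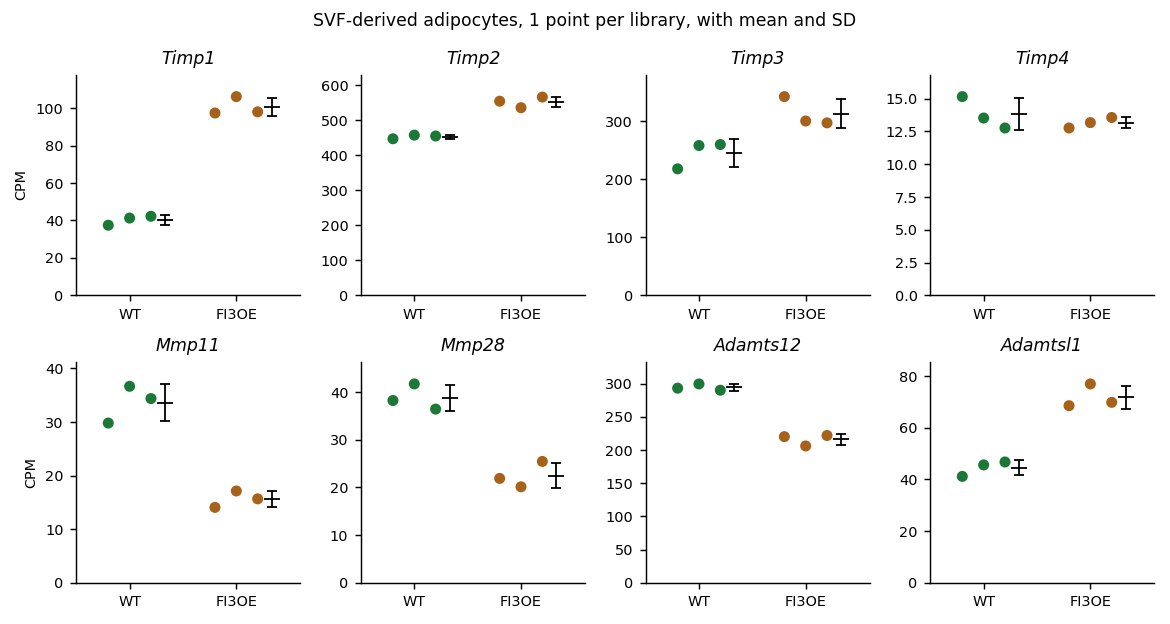
CPM of 8 members in WT and FI3OE SVF-derived adipocytes, with 1 point per library (3 a group) and the mean with its SD beside them; each axis starts at 0. Timp1, Timp2, Timp3 and Adamtsl1 are higher in FI3OE without overlap, Mmp11, Mmp28 and Adamts12 are lower without overlap, and Timp4 overlaps.

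Mmp11 (stromelysin-3, ENSMUSG00000000901, chromosome 10, 75923222 to 75936496, minus strand), which is activated inside the cell by furin, fell most among the expressed members. It had 29.8, 36.7 and 34.4 CPM in WT and 14.1, 17.1 and 15.7 CPM in FI3OE. The groups were apart, and Mmp11 fell by 1.10 on the log2 scale (standard error 0.09) at an adjusted p of 1.92e-06 in edgeR, and of 0.0106 in the fit of all 18 libraries. Of its exon bases, 5.58% overlap Chchd10 on the other strand, whose mean was 337 TPM in WT and 96.1 TPM in FI3OE; its part in the value of Mmp11 was not tested. Mmp21 was the other member called lower, at 9 to 18 reads a library in WT and 2 to 11 in FI3OE, a fall of 1.51 on the log2 scale (standard error 0.46, adjusted p = 0.0235), and it lost the call without WT replicate 1, FI3OE replicate 1 or FI3OE replicate 2 (adjusted p up to 0.0767), and without WT replicate 3 it was not tested.

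Further MMPs changed in both directions at the adjusted p alone. Mmp28 had 38.2, 41.7 and 36.4 CPM in WT and 21.9, 20.1 and 25.4 CPM in FI3OE, a fall of 0.78 on the log2 scale (standard error 0.08, adjusted p = 2e-05 in edgeR) that also passed in the 18-library fit (adjusted p = 9.63e-06). The overlapping 1700020L24Rik went from 33.7 to 21.7 TPM. Mmp15 had 7.93, 9.81 and 8.31 CPM in WT and 7.01, 6.29 and 6.22 CPM in FI3OE (log2 fold change -0.42, standard error 0.11, adjusted p = 0.0127, and 0.0577 without WT replicate 2). For both genes every FI3OE library lay below every WT library.

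Mmp23, Mmp19, Mmp14 and Mmp12 rose. Mmp23 went from 34.7, 33.5 and 33.9 CPM to 46.9, 47.4 and 48.5 CPM (log2 fold change 0.49, standard error 0.04, adjusted p = 4.62e-06), and Mmp19 from 73.7, 77.2 and 82.0 CPM to 108, 102 and 102 CPM (0.42, standard error 0.04, adjusted p = 1.98e-05). Mmp14, the activator of MMP2, rose by 0.25 on the log2 scale (standard error 0.05, adjusted p = 0.00132), and Mmp12 by 0.27 (standard error 0.09, adjusted p = 0.0337), which did not hold without WT replicate 2 or 3 or FI3OE replicate 2 or 3 (adjusted p up to 0.119). Mmp2 itself had 307, 295 and 322 CPM in WT and 274, 264 and 301 CPM in FI3OE, which overlapped (log2 fold change -0.14, adjusted p = 0.057). Mmp3, Mmp13, Mmp17 and Mmp27 overlapped as well, with log2 fold changes between -0.19 and 0.09 and adjusted p-values of 0.166 or more. Of 12 macrophage genes, 3 were higher and 3 lower at the adjusted p, and their summed level was 3030 to 3200 TPM in WT and 3100 to 3120 TPM in FI3OE, with overlap. Mmp12 is known as a macrophage product, and the part of these cells in its value was not tested.

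The procollagen N-proteinases were lower. Adamts2 had 675, 698 and 683 CPM in WT and 589, 579 and 618 CPM in FI3OE (log2 fold change -0.20, standard error 0.04, adjusted p = 0.001), and Adamts3 had 3.92, 4.12 and 4.57 CPM in WT and 2.03, 2.73 and 2.56 CPM in FI3OE (-0.78, standard error 0.16, adjusted p = 0.0024). The third, Adamts14, was lower without overlap but did not pass the test (-0.23, adjusted p = 0.16). Among proteoglycanases, Adamts5 rose from 479, 501 and 502 CPM to 595, 612 and 596 CPM (0.28, standard error 0.03, adjusted p = 6.27e-05) and Adamts9 rose by 0.20 (adjusted p = 0.00562), while Adamts15 fell by 0.30 (adjusted p = 0.00182). Adamts1 and Adamts4 did not pass the test, with log2 fold changes of 0.00 and -0.07.

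Adamts12 had 293, 299.6 and 290.1 CPM in WT and 220.2, 206 and 222 CPM in FI3OE, a fall of 0.45 on the log2 scale (standard error 0.04, adjusted p = 4.75e-06 in edgeR), with no overlap. Adamts6 rose by 0.30 (adjusted p = 0.00498), and Adamts7 and Adamts10 did not pass the test (log2 fold changes -0.07 and -0.11). Of the ADAMTS-like genes, Adamtsl1 (punctin) had 41.2, 45.6 and 46.8 CPM in WT and 68.6, 77.0 and 69.9 CPM in FI3OE, a rise of 0.69 on the log2 scale (standard error 0.06, adjusted p = 3.58e-06), and Adamtsl4 one of 0.37 (adjusted p = 0.000441). Adamtsl2, which binds fibrillin-1 and a latent TGF-beta binding protein, fell by 0.77 (standard error 0.14, adjusted p = 0.000885). Adamtsl3 and Adamtsl5 did not pass, with log2 fold changes of -0.32 and 0.19. In the fit of all 18 libraries, Mmp11, Mmp28, Mmp19 and Adamtsl4 were the members that stayed past the adjusted p.

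Genes around these proteases changed in both directions in FI3OE, where 20.2% of all genes were higher and 16.8% lower at the adjusted p, with a median log2 fold change of 0.00. In the plasminogen system, which activates MMP proenzymes, the tissue activator Plat (log2 fold change 0.91) and the inhibitor Serpine2 (0.79) were higher at the adjusted p and the urokinase Plau (-0.31) was lower. Among 13 activators, inhibitors and clearance genes 6 were higher and 5 lower (median 0.10), with the inhibitor A2m at -1.25, the proprotein convertase Pcsk5 at -0.80 and the membrane-anchored MMP inhibitor Reck at 0.49. Among 12 matrix substrates 5 were higher and 5 lower (median -0.10), with Nid2 at 0.77, Fbn2 at -0.61 and Fn1 at -0.27. Among 9 other metalloproteases 4 were higher and 0 lower (median 0.12), with Adam8 at 0.35, Bmp1 at 0.15 and Adam9 at 0.12, and among 7 other matrix-degrading proteases 2 were higher and 4 lower (median -0.16), with Fap at -0.63, Htra1 at -0.34 and Ctsb at 0.22. Beside them, 5 of 10 fibroblast and progenitor genes were higher and 0 lower, and their summed level was 2050 to 2130 TPM in FI3OE against 1450 to 1500 TPM in WT. Ly6c1 alone went from a mean of 318 to one of 774 TPM, the greater part of that rise, and the part of these cells in the values above was not tested.

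Over all libraries, Timp1, Mmp12, Adamts14, Adamtsl2 and Mmp2 were called lower in eWAT TRAP RNA of FI3KO mice, and no member was called higher. The groups did not overlap for Adamts2 and Adamtsl2, which were lower, and for Timp3, Timp4 and Adamts12, which were higher at the adjusted p alone. In replicates 1 and 2 alone, Timp1, Mmp12, Adamts14 and Mmp2 had positive log2 fold changes that did not pass the test (0.23 to 0.84). Of 29 members tested, 5 were called (background 6.61%), 0 higher (background 1.74%) and 5 lower (background 4.87%). At the adjusted p alone, 5 were higher (background 19.1%) and 10 lower (background 18.3%), 15 of 29 against 37.4% of 13624 genes. Groups did not overlap for 5 members (background 16.0%), 3 higher (7.47%) and 2 lower (8.53%). The median log2 fold change of the 29 members was -0.27, against 0.02 for all genes. In these bulk samples fewer cells of a type and less RNA per cell cannot be told apart.

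Several of these values differed between the replicate sets. In replicates 3 to 6, 13 of 30 members were called (background 13.6%), 1 higher and 12 lower, beside 554 genes higher and 1314 lower of 13692. At the adjusted p 20 members passed (background 50.6%). In replicates 1 and 2, 1 was called (background 1.36%) and 3 passed the adjusted p (background 3.56%). With WT replicates 1 and 2 averaged into 1 sample, 8 members were called over all replicates (background 7.92%). The genotype effect differed between the sets for 14 of 29 members at the adjusted p of the interaction term, against 26.5% of all genes. It passed for 9 of 30 with WT replicates 1 and 2 averaged (background 14.3%), for 9 of 29 without WT replicate 1 (background 15.3%) and for 8 of 30 without WT replicate 2 (background 14.8%). The summed level of 12 macrophage genes was 97.0 to 136 TPM in WT and 18.8 to 23.7 TPM in FI3KO of replicates 3 to 6. In replicates 1 and 2 it was 52.8 and 53.0 TPM in WT and 42.6 and 51.0 TPM in FI3KO, lower in FI3KO there too but by less. Of 10 macrophage genes tested, 9 were lower in FI3KO, and none of the 12 was at 0 in a whole group. Of 6 neutrophil genes S100a8 alone was tested and was lower, with a mean of 25.8 TPM in WT and 1.18 TPM in FI3KO, and the list summed to 13.3 to 37.8 TPM in WT and 0.376 to 2.56 TPM in FI3KO, with Ly6g and Retnlg at 0 in both TRAP groups. The summed level of 8 endothelial genes, none at 0 in a whole group, was 71.4 and 93.3 TPM in FI3KO replicates 1 and 2, against 35.2 and 39.1 TPM in WT replicates 1 and 2. In replicates 3 to 6 it was 17.3 to 38.4 TPM in FI3KO and 23.0 to 45.0 TPM in WT, with overlap. The part of these cells in the changes below was not tested.

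**Figure D4:**
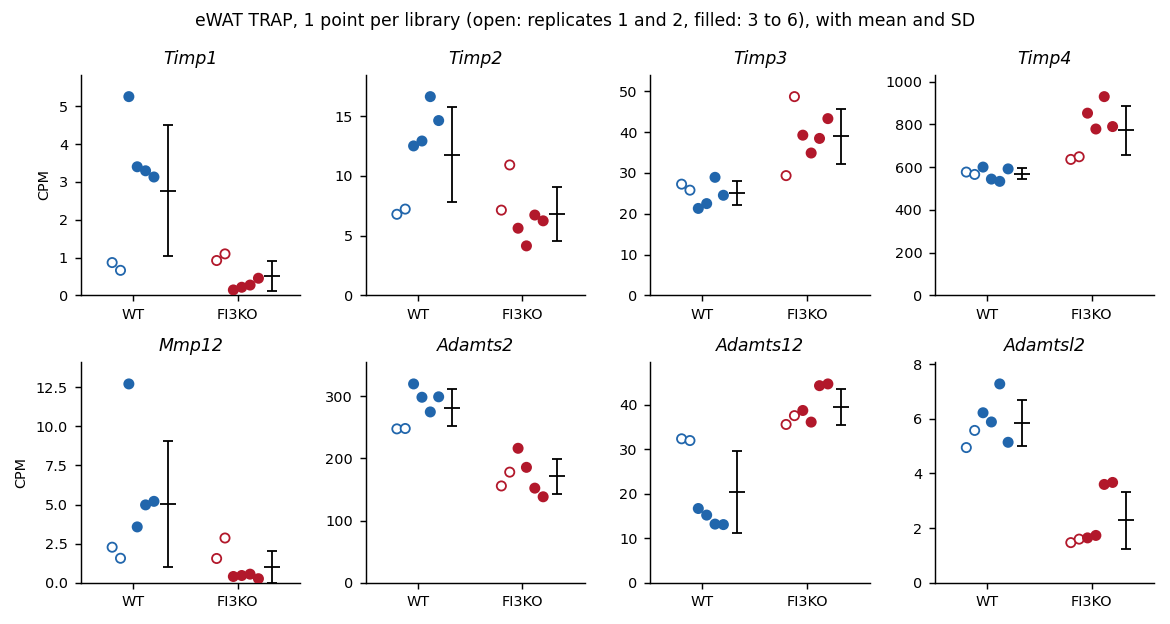
CPM of 8 members in WT and FI3KO TRAP RNA, with 1 point per library (6 a group), open for replicates 1 and 2 and filled for 3 to 6, and the mean with its SD beside them; each axis starts at 0. Timp3, Timp4 and Adamts12 are higher and Adamts2 and Adamtsl2 lower in FI3KO without overlap, while for Timp1, Timp2 and Mmp12 WT lies above FI3KO in the filled points only.

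Timp1 had 0.869, 0.663, 5.25, 3.40, 3.29 and 3.13 CPM in WT replicates 1 to 6 and 0.923, 1.10, 0.146, 0.216, 0.275 and 0.455 CPM in FI3KO. In replicates 3 to 6 each WT library lay above each FI3KO library, and in replicates 1 and 2 both FI3KO libraries lay above both WT libraries. Over all 12 libraries the log2 fold change was -2.43 (standard error 0.58, adjusted p = 0.00607 in edgeR), in replicates 3 to 6 -3.76 and in replicates 1 and 2 0.42 (adjusted p = 0.43). The difference of the 2 effects was -4.17 (standard error 0.51, adjusted p = 0.000136 for the interaction). These levels rest on 4 to 179 reads a library. Timp1 lies within an intron of Syn1 on the other strand, with which it shares 0 exon bases and which had a mean of 0.734 TPM in WT.

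Timp2 followed the same pattern at a higher level. Its WT values were 6.79 and 7.22 CPM in replicates 1 and 2 and 12.5 to 16.6 CPM in replicates 3 to 6, and its FI3KO values were 7.13 and 10.9 CPM and 4.14 to 6.72 CPM. The WT libraries of replicates 3 to 6 thus stood above all others. Timp2 fell by 0.79 on the log2 scale (standard error 0.25, adjusted p = 0.0264 in edgeR), with -1.31 in replicates 3 to 6 and 0.38 in replicates 1 and 2 (adjusted p = 0.292 in the latter, difference -1.68, adjusted p = 0.00126). It did not pass without WT replicate 3, 4, 5 or 6 or FI3KO replicate 3 or 4 (adjusted p up to 0.0597).

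Timp3 and Timp4 rose over all libraries. Timp4 (ENSMUSG00000030317, chromosome 6, minus strand) had 534 to 601 CPM with a median of 572 in WT and 637 to 930.4 CPM with a median of 785 in FI3KO, and Timp3 (ENSMUSG00000020044) had 21.3 to 28.9 CPM with a median of 25.1 in WT and 29.3 to 48.7 CPM with a median of 38.8 in FI3KO. For both genes all 6 FI3KO libraries lay above all 6 WT libraries. The log2 fold change was 0.44 for Timp4 (standard error 0.09, adjusted p = 0.00254) and 0.64 for Timp3 (standard error 0.11, adjusted p = 0.00112) in edgeR. In replicates 3 to 6 it was 0.56 for Timp4 (adjusted p = 0.000151) and 0.68 for Timp3 (adjusted p = 0.000376). In replicates 1 and 2 neither passed, with 0.18 for Timp4 (adjusted p = 0.124) and 0.57 for Timp3 (adjusted p = 0.17). The sets differed by 0.39 for Timp4 (adjusted p = 0.0265) and by 0.12 for Timp3 (adjusted p = 0.745). The difference for Timp4 did not pass with WT replicates 1 and 2 averaged (adjusted p = 0.0842) or without WT replicate 1 or 2 or FI3KO replicate 1 or 2 (adjusted p up to 0.0891). Syn3, within which Timp3 lies, covers 21.3% of its exon bases on the other strand and had a mean of 0.594 TPM in WT and 0.708 TPM in FI3KO. The summed TIMP level was 451 to 516 TPM in WT. In FI3KO it was 468 and 515 TPM in replicates 1 and 2, inside the WT range, and at least 626 TPM in replicates 3 to 6, above it.

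Mmp12 (ENSMUSG00000049723, chromosome 9, 7344381 to 7369499, plus strand) was lower in FI3KO and varied most. WT replicates 1 to 6 had 2.27, 1.57, 12.7, 3.57, 4.98 and 5.20 CPM, and FI3KO replicates 1.55, 2.86, 0.401, 0.464, 0.550 and 0.260 CPM. WT replicate 3 lay far above the rest, and the groups were apart in replicates 3 to 6 only. Its log2 fold change was -2.33 (standard error 0.62, adjusted p = 0.0112 in edgeR), and -3.95 in replicates 3 to 6 and 0.23 in replicates 1 and 2 (adjusted p = 0.701 in the latter), with a difference of -4.17 (adjusted p = 0.00131). Leaving out single libraries kept it between -3.01 and -1.80.

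Mmp2 and Mmp14 had few reads here, and their effects also differed between the sets. Mmp2 had 0.769, 1.01, 3.32, 2.17, 2.57 and 2.14 CPM in WT and 1.09, 2.06, 0.511, 0.526, 0.625 and 0.552 CPM in FI3KO. The log2 fold change was -1.16 (standard error 0.43, adjusted p = 0.0484), -2.19 in replicates 3 to 6 and 0.84 in replicates 1 and 2 (adjusted p = 0.217 in the latter) with a difference of -3.02 (adjusted p = 0.000362), and the call was lost without any single library other than WT replicates 1 and 2 and FI3KO replicate 2 (adjusted p up to 0.118). Mmp14 did not pass over all libraries (-0.48, adjusted p = 0.381) and had -1.44 in replicates 3 to 6 and 1.08 in replicates 1 and 2 (adjusted p = 0.111), a difference of -2.52 (adjusted p = 0.00437). In the WT cultures Mmp2 and Mmp14 had means of 223 and 211 TPM. The summed level of 10 fibroblast and progenitor genes in TRAP RNA was 108 to 172 TPM in WT and 172 to 247 TPM in FI3KO, mostly Dpt and Dcn. Of these 10 genes 2 were higher (Dpt at 0.62 and Dcn at 1.36) and 2 lower (Mfap5 at -1.10 and Dpp4 at -1.503) at the adjusted p, with a median log2 fold change of -0.19, and their part in the values of Mmp2 and Mmp14 was not tested.

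Mmp28 and Mmp15 did not pass the test in TRAP RNA, while Mmp19 was lower and Mmp23 higher at the adjusted p. Mmp28 had 179 to 203 CPM in WT and 173 to 189 CPM in FI3KO (log2 fold change -0.06, standard error 0.05, adjusted p = 0.37), and Mmp15 had 22.7 to 25.7 and 21.9 to 31.2 CPM (0.11, adjusted p = 0.362). Mmp19 was at 77.1 to 108 CPM with a median of 103 in WT and 75.7 to 87.4 CPM with a median of 80.8 in FI3KO. Its groups overlapped through WT replicates 1 and 2, and the log2 fold change was -0.25 (standard error 0.09, adjusted p = 0.0412), with -0.37 and 0.05 by set (difference -0.42, adjusted p = 0.00728). It passed without WT replicate 1 or 2 or FI3KO replicate 4 but not without any other single library (adjusted p up to 0.0977). Mmp23 rose by 0.67 (standard error 0.21, adjusted p = 0.0255), from a median of 7.40 to one of 14.6 CPM, with FI3KO replicates 3 and 4 inside the WT range, and did not pass without WT replicate 4 or 6 or FI3KO replicate 5 or 6 (adjusted p up to 0.0604). Mmp11 had a log2 fold change of 0.85 that did not pass (adjusted p = 0.0563) at 0.314 to 1.43 CPM.

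Adamts2 had less varied values. It had 247 to 319 CPM with a median of 286 in WT and 138 to 216 CPM with a median of 167 in FI3KO, and each FI3KO library lay below each WT library. Adamts2 fell by 0.72 on the log2 scale (standard error 0.11, adjusted p = 0.000389 in edgeR), -0.78 in replicates 3 to 6 and -0.56 in replicates 1 and 2, past the adjusted p in each set (0.000482 and 0.0303). The second of these p-values carries the limit given above for the close pair of WT libraries. The related Adamts14 fell by 1.44 (standard error 0.42, adjusted p = 0.0169), from a median of 1.55 CPM to one of 0.389 CPM, with -2.43 and 0.26 by set (difference -2.68, adjusted p = 0.0024).

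Adamts5, with a median of 2739 CPM in WT and 1619 CPM in FI3KO, fell by 0.48 on the log2 scale (standard error 0.17, adjusted p = 0.0363). WT libraries ranged from 2267 to 3001 CPM. FI3KO replicates 3 and 4 had 2739 and 2507 CPM, inside the WT range, and the other 4 FI3KO libraries had 1442 to 1628 CPM, below it. Without any of these 4, or without WT replicate 3, 4, 5 or 6, it did not pass (adjusted p up to 0.0776). Its neighbour Adamts1 split alike, with 266 and 231 CPM in FI3KO replicates 3 and 4 and 69.6 to 124 CPM in the others, and did not pass the test (-0.86, adjusted p = 0.0943). Adamts9 fell by 0.58 (standard error 0.15, adjusted p = 0.0108), with 54.2 to 85.2 CPM in WT and 34.6 to 57.2 CPM in FI3KO, -0.86 in replicates 3 to 6 and 0.02 in replicates 1 and 2 (difference -0.87, adjusted p = 0.0145, and 0.0626 with WT replicates 1 and 2 averaged). Adamts4 and Adamts15 did not pass over all libraries, and their effects differed between the sets by -2.87 and -1.86 (adjusted p = 0.00757 and 0.0129), which for Adamts15 did not pass with WT replicates 1 and 2 averaged (0.0581).

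Adamts12 was the 1 member called higher in replicates 3 to 6. WT had 32.3 and 31.9 CPM in replicates 1 and 2 and 13.1 to 16.7 CPM in replicates 3 to 6, and FI3KO had 35.5 to 44.6 CPM. All FI3KO libraries lay above all WT libraries, narrowly so against WT replicates 1 and 2. The log2 fold change was 0.95 (standard error 0.23, adjusted p = 0.00658 in edgeR), 1.49 in replicates 3 to 6 and 0.19 in replicates 1 and 2, with a difference of 1.31 (adjusted p = 0.000131). Adamts7, Adamts10 and Adamts6 did not pass the test, with log2 fold changes of 0.12, -0.27 and -0.21, and the effect on Adamts6 differed between the sets by 1.79 (adjusted p = 0.0229, and 0.0709 with WT replicates 1 and 2 averaged).

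Among ADAMTS-like genes, Adamtsl2 had 4.95, 5.57, 6.22, 5.88, 7.28 and 5.14 CPM in WT and 1.47, 1.60, 1.64, 1.73, 3.60 and 3.67 CPM in FI3KO. No FI3KO library reached a WT library, and FI3KO replicates 5 and 6 stood above the other 4. The log2 fold change was -1.34 (standard error 0.25, adjusted p = 0.00139 in edgeR), -1.19 in replicates 3 to 6 and -1.77 in replicates 1 and 2, where it was the 1 member called. Adamtsl5 rose by 0.78 (standard error 0.24, adjusted p = 0.0223), from a median of 1.31 to one of 2.39 CPM with overlap, and narrowly missed the adjusted p without WT replicate 3 (0.0507). Adamtsl1, Adamtsl3 and Adamtsl4 did not pass, with log2 fold changes of -0.11, -0.61 and -0.01.

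**Figure D5:**
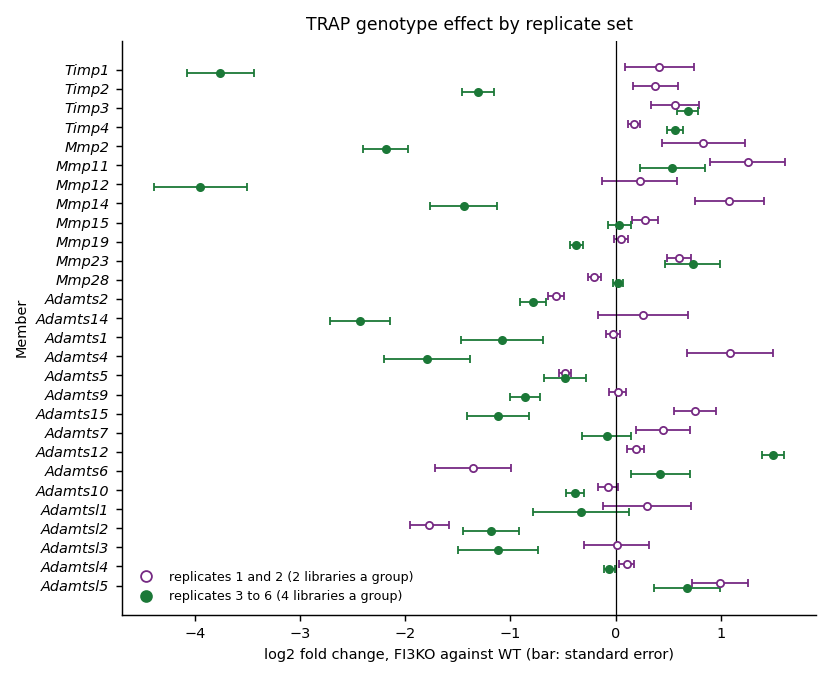
Log2 fold change of FI3KO against WT in TRAP RNA with its standard error, fitted in replicates 1 and 2 (open, 2 libraries a group) and in replicates 3 to 6 (filled, 4 a group), for members in order of role. Timp1, Timp2, Mmp2, Mmp12 and Mmp14 lie above 0 in the first set and below 0 in the second, while Timp3 and Timp4 lie above 0 and Adamts2, Adamts5 and Adamtsl2 below 0 in both.

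Genes around these proteases were counted in FI3KO at the adjusted p, where 19.1% of all genes were higher and 18.3% lower, with a median log2 fold change of 0.02. Of 11 matrix substrates tested 8 were lower and 1 higher (median -0.835), with the proteoglycan Bgn at -2.20, Fn1 at -1.91 and Nid2 at -0.84. Of 9 other metalloproteases 7 were lower and 0 higher (median -0.28), with Adam12 at -1.14, the procollagen C-proteinase Bmp1 at -0.96 and Adam10 at -0.28. Of 7 other matrix-degrading proteases 3 were lower and 0 higher (median -0.13), with Ctss at -2.10, Fap at -1.94 and Ctsk at -0.84. Among 12 activators, inhibitors and clearance genes 5 were higher and 1 lower (median 0.09), with the convertases Pcsk6 at 1.17 and Pcsk5 at 0.64 and with Sparc at -0.80. In the plasminogen system Serpine2 was higher (0.66), and Plau (-0.97) did not pass the test. Of the other marker lists, 5 of 10 adipocyte genes were higher and 1 lower in FI3KO, and in the mural list only Acta2 was lower (-1.18), from a mean of 817 TPM in WT to one of 358 TPM in FI3KO.

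Set side by side, 28 members were tested in both comparisons and 11 passed the adjusted p in both, against 2227 of 13093 genes. Timp1, Timp2, Adamts5, Adamts9, Mmp12 and Mmp19 were higher in FI3OE and lower in FI3KO, and Adamts12 was lower in FI3OE and higher in FI3KO. In FI3KO replicates 1 and 2 alone, Adamts5 was lower past the adjusted p, Adamts12 did not pass (0.19, adjusted p = 0.186), and Timp1, Timp2, Adamts9, Mmp12 and Mmp19 had positive log2 fold changes that did not pass (0.02 to 0.42). Over all libraries, 7 of 11 members thus had opposite directions (63.6%), close to the 61.5% among all genes that passed in both. Timp3 and Mmp23 were higher in both comparisons, and Adamts2 and Adamtsl2 lower in both. The comparisons share no libraries.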

How the data were processed

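RNA was sequenced from 6 SVF-derived adipocyte libraries and 12 eWAT TRAP libraries. Per the labels and the study's methods, the authors trimmed reads with fastp and quantified them with Salmon (version 1.4.0 in the submitters' processing notes) against GENCODE transcripts of GRCm38, with corrections for sequence and GC bias. They deposited, for each transcript and library, an estimated count of reads, the TPM that Salmon scales by effective length within the library, and that length.

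Estimated counts of 118733 transcripts were summed per gene through GENCODE M21, which held 117850 of them. The other 883 took 0.375 to 1.08% of the reads. Each was kept under its own name, as an entry among what is counted here as 33440 genes. They were part of the library sizes, and of the genes tested where they passed the filter. Summed counts were rounded to whole numbers and tested with edgeR 4.0.16 (filterByExpr, TMM, quasi-likelihood test, R 4.3.3) within each experiment, and adjusted by Benjamini-Hochberg over all genes tested. CPM are TMM-scaled. TPM are sums over a gene's transcripts. Levels of at least 1 TPM counted as expressed. The interaction of genotype with replicate set (1 and 2, or 3 to 6) was fitted over the 12 TRAP libraries. Fits were tested on simulated data, of which no value is reported here.

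Members were named with values where they reached 1 TPM in a WT group or passed the adjusted p, and up to 3 genes per surrounding list were named by lowest adjusted p. For the plasminogen system list, counts and 1 gene are not reported here. Members and lists were chosen with earlier results of these data known. Alternatives included DESeq2 1.42.0, other filters, a length offset, all 18 libraries in 1 fit, a replicate block, the replicate sets, and leaving out each library. Depth, at 21541334 to 40490283 reads a library, limits genes with few reads, and the labels name no batch.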

Additional observations from a re-analysis of the deposited data

Results flagged for a closer look

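In 2 of 56 groups of 6 TRAP libraries, 1 library lay further from the others than the 95% limit for its gap as a share of the group's range (0.625), where chance gives about 1 in 20, or 2.8 groups. Mmp2 in FI3KO replicate 2 was the highest of its group with a gap of 0.626, and Mmp12 in WT replicate 3 was the highest of its group with a gap of 0.673.

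The genotype effect differed between replicates 3 to 6 and replicates 1 and 2 for 14 members in the interaction test of edgeR, and the values here are the log2 effect in replicates 3 to 6 minus that in replicates 1 and 2. It was lower in replicates 3 to 6 for Timp1 (-4.17), Mmp12 (-4.17), Mmp2 (-3.02), Adamts4 (-2.87), Adamts14 (-2.68), Mmp14 (-2.52), Adamts15 (-1.86), Timp2 (-1.68), Adamts9 (-0.873) and Mmp19 (-0.418). It was higher there for Adamts6 (1.79), Adamts12 (1.31), Timp4 (0.393) and Mmp28 (0.229). With WT replicates 1 and 2 averaged, Adamts6, Adamts9, Adamts15, Mmp28 and Timp4 did not pass (adjusted p 0.0581 to 0.1235). The labels do not say how replicates 1 and 2 differ from replicates 3 to 6.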

How the results depend on the processing

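In FI3OE against WT, fitting all 18 libraries together gave 342 of 17289 genes called and 1 of 40 members called. In that fit 4 members passed the adjusted p, beside 955 genes higher and 617 lower. Dropping the fold cutoff gave 5960 genes and 21 members. Leaving out single libraries gave 2 to 3 members called (3 without WT replicate 2 or FI3OE replicate 3), beside 551 to 623 genes called. These fits tested 16315 to 16473 genes. In them 19 to 22 members passed the adjusted p, beside 2746 to 2914 genes higher and 2190 to 2385 lower. In FI3KO against WT, genes called were 1355 with all 18 libraries, 1868 in replicates 3 to 6, 191 in replicates 1 and 2 and 5095 with no fold cutoff. Members called were 13 in replicates 3 to 6, 1 in replicates 1 and 2, 8 with WT replicates 1 and 2 averaged and 15 with no fold cutoff. Without single libraries 4 to 8 members were called, beside 761 to 1115 genes. The fit without WT replicate 2 called 8 of 30 members and 1115 of 13763 genes. That without WT replicate 3 called 4 of 29 members and 764 of 13747 genes. Members at the adjusted p were 3 in replicates 1 and 2 and 10 to 17 without single libraries. Without WT replicate 2 there were 17, beside 2665 of 13763 genes higher and 2678 lower. Without WT replicate 3 there were 10, beside 2013 of 13747 genes higher and 2013 lower. The interaction passed for 9 members with WT replicates 1 and 2 averaged (14.3% of all genes) and for 8 to 14 without single libraries (9 without WT replicate 1, at 15.3% of all genes, and 8 without WT replicate 2, at 14.8%), against 26.5% of all genes over all libraries. The cause of these shifts was not tested.

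With the replicate number as a block, 579 genes and 3 members were called in FI3OE, and 736 of 13624 genes and 2 members in FI3KO, where 7 members passed the adjusted p beside 1766 genes higher and 1866 lower. Deviations of same-numbered libraries correlated between -0.031 and 0.029 in SVF-derived adipocytes and between -0.342 and 0.097 in TRAP RNA. For differently numbered libraries the ranges were -0.048 to 0.073 and -0.308 to 0.486. These values gave no sign of pairing by number but cannot exclude it, since the labels name no animal or culture.

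Some log2 fold changes turned sign. In FI3OE, Adamts1 was -0.00279 with a minimum mean CPM of 1, -0.0597 with a length offset and -0.0304 with protein-coding transcripts only, Adamts10 was 0.564 and Mmp13 -0.00916 with protein-coding transcripts only, and Adamtsl5 was -0.0699 with a length offset. Without single libraries the ranges were -0.0172 to 0.0395 for Adamts1, -0.153 to 0.00577 for Adamts7, -0.0396 to 0.14 for Mmp13 and -0.122 to 0.00553 for Timp4. In FI3KO, replicates 1 and 2 alone gave 1.09 for Adamts4, 0.0207 for Adamts9, 0.258 for Adamts14, 0.753 for Adamts15, 0.3 for Adamtsl1, 0.0113 for Adamtsl3, 0.103 for Adamtsl4, 0.835 for Mmp2, 0.228 for Mmp12, 1.08 for Mmp14, 0.0505 for Mmp19, 0.417 for Timp1 and 0.375 for Timp2. Replicates 3 to 6 alone gave 0.425 for Adamts6, -0.084 for Adamts7 and 0.0196 for Mmp28, and a length offset gave 0.00879 for Adamts6. Without single libraries Adamtsl1 ranged from -0.345 to 0.0802 and Adamtsl4 from -0.0368 to 0.0085.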
